A study of Mus musculus with 12 samples.

Results

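The 5 perilipin genes of the mouse (Plin1, Plin2, Plin3, Plin4 and Plin5) were examined, out of 21883 protein-coding genes on the chromosomes of the RefSeq table for mm10. H3K27ac, the acetylated histone found at promoters and enhancers in use, had been mapped by ChIP-seq in whole hearts of newborn mice at postnatal day 0. The cardiomyocyte-specific double knockout of Rxra and Rxrb (edKO, hearts 1, 3 and 6) was compared with wild type (WT, hearts 1, 3 and 4), and each heart was a biological replicate. The 6 matching input samples were not used. Rxra and Rxrb encode retinoid X receptors, which bind DNA as partners of other nuclear receptors, PPARs among them. The line that drives the deletion is not given in the sources used here. A whole heart also holds other cell types, and whether they keep both genes was not tested. For each gene, called peaks were taken from 10 kb before the gene body to 10 kb after it, and for Plin2 also those as far as 50 kb away. Plin4 and Plin5 are neighbours, so their peaks were also counted once over a joint stretch. The question was whether RXR in cardiomyocytes affects the mark at these genes.

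Perilipins coat lipid droplets, the organelles in which cells store neutral lipid. They control how lipases reach the stored triglyceride, and so how fast fatty acids leave the droplet. Plin1 is the perilipin of adipocytes, where it holds back lipolysis until hormones act. Plin2 and Plin3 are expressed in most tissues, Plin2 as a coat of stored droplets and Plin3 as a protein that moves from the cytosol to newly forming ones. Plin4 is found mainly in adipose tissue and muscle. Plin5 is typical of tissues that burn much fatty acid, heart above all, and it links droplets to mitochondria. Several perilipin genes are known targets of PPARs, which bind DNA together with RXR at repeats of the sequence AGGTCA.

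The 6 peak lists held from 47972 to 67708 distinct regions covering 47.9 to 68.3 Mb of genome, and the read depth of single hearts is unknown. By number of regions, the shortest lists were those of edKO 1 and edKO 3, and the longest was that of edKO 6. By length covered, edKO 3 was the lowest at 47.9 Mb and WT 3 the highest at 68.3 Mb, with edKO 1 at 66.6 Mb and edKO 6 at 62.6 Mb. Where a heart lacks a peak, the peak was not called there, and some mark may still be present. The starts of all 10 cardiomyocyte marker genes tested (Tnnt2, Myh6 and others) were marked in every heart. Of the 6 adipocyte markers with a listed start, only Pparg was marked within 1 kb of its start, in every heart, while the starts of Adipoq, Cidec, Lep, Retn and Cfd were unmarked in all 6. The length summed over the 8 adipocyte marker loci was 12759 to 21493 bp in edKO hearts and 13592 to 19132 bp in WT hearts. Fibroblast and endothelial markers were each marked at 4 of 4 listed starts, and leukocyte markers at 0 of 4, in each heart.

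The start of Plin5 was the clearest difference among the perilipins. A region across it (chromosome 17, 56116683 to 56118072, mm10, merged over the hearts) was called in no edKO heart. In the WT hearts 1, 3 and 4 it was called over 772, 1104 and 1121 bp. It reaches 524 bp upstream and 865 bp into the gene from the outermost RefSeq start, and covers both RefSeq starts of Plin5. Within the WT lists, its fold enrichment stood at percentiles 44.1, 80.4 and 82.0 of all regions, so it was of middling strength in WT 1 and stronger in WT 3 and WT 4. The list with the most regions, edKO 6, also lacked it. The WT calls stayed with all lists held to an equal length, a step that only removes regions and so cannot restore a call in edKO. In whole hearts, a mark lost in some cells and a mark weakened in all cells cannot be told apart.

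This pattern was uncommon but not particular to Plin5. Of 79293 merged regions, 854 (1.08%) were called in each of the WT hearts but none of the edKO hearts, and 57 (0.0719%) showed the opposite pattern. Of 9647 protein-coding genes with called length within 1 kb of a start in every WT heart, 24 (0.249%) had none there in any edKO heart, Plin5 among them. In the other direction, 2 of 9455 starts (0.0212%) were marked in every edKO heart and in no WT heart.

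A fit over gene starts was added after the call pattern was seen. Over 9874 gene starts tested with limma, 2 were called lower in edKO (0.0203%) and 0 higher at an adjusted p of 0.05; at an unadjusted p under 0.05, 225 were lower (2.28%) and 126 higher (1.28%). Plin5 was not among the calls. Its log2 difference was -2.55 (SE 0.50, limma adjusted p = 0.287, unadjusted p = 0.000319). It ranked 11 of 9874 by p. Since all edKO hearts are at 0, this estimate depends on the 200 bp added before taking logs, and it was -0.99 with 1000 bp and -4.35 with 50 bp.

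The promoters of Plin5 are shown because only the WT hearts have a call there. RefSeq (GRCm38.p6) gives 2 starts on the minus strand, at 56117548 and 56117298. Each line runs 5′ to 3′ on the strand of the gene, from 250 bases before the start to 50 bases from it on. Capitals mark AGGTCA, the half-site of RXR partners, on either strand (TGACCT on the other). The Plin4 and Plin2 promoters follow, as neighbours or family members whose start was marked in every heart. The Plin3 start was also marked in every heart, and its promoter is not shown.
Plin5 outer start, chr17:56117499-56117798, minus strand: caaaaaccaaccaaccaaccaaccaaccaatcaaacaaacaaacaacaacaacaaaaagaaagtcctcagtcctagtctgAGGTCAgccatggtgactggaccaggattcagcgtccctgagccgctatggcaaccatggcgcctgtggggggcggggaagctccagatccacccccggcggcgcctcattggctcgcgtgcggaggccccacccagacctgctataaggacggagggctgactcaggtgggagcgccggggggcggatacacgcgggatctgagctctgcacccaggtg
Plin5 inner start, chr17:56117249-56117548, minus strand: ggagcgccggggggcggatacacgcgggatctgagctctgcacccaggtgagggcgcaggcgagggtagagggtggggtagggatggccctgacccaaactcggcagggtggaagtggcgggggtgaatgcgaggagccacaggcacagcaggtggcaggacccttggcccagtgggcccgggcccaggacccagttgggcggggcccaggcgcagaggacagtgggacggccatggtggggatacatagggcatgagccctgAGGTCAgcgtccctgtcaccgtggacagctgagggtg
Plin4, chr17:56109733-56110032, minus strand: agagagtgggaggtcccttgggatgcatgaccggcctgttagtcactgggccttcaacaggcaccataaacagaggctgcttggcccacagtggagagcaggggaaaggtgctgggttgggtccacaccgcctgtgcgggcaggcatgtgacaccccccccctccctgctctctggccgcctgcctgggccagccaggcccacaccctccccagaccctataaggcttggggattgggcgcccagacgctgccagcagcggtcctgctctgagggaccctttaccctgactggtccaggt
Plin2, chr4:86670010-86670309, minus strand: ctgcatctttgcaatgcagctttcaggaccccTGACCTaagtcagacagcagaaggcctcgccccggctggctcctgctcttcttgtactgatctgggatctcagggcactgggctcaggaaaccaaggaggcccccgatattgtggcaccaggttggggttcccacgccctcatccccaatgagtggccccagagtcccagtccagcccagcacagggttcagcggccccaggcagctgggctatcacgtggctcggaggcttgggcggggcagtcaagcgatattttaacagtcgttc

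Both Plin5 promoters hold 1 AGGTCA, at bases -170 to -165 for the outer start and 13 to 18 for the inner one, with the start counted as base 0. The Plin2 promoter holds 1 on the other strand, at -218 to -213, while the Plin1, Plin3 and Plin4 promoters hold none. AGGTCA in either direction occurs in 16.3% of all 32851 RefSeq promoters of this length, so a match is common. The direct repeat DR1, in which 2 copies of AGGTCA follow each other with 1 base between them and which PPAR and RXR pairs bind, had no exact match in any perilipin promoter (0.0396% of all promoters hold one). With up to 3 of its 12 fixed letters changed it matched in Plin2, Plin3 and both Plin5 promoters, as in 24.6% of all promoters. TCAAGGTCA, the extended half-site of the estrogen-related receptors, matched in none of the perilipin promoters (0.423% of all promoters). The called regions of the WT hearts covered 300 of 300 bases of the inner Plin5 promoter in each heart and 243, 288 and 300 of the outer one. In every edKO heart they covered 0 bases of both.

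**Figure D1:**
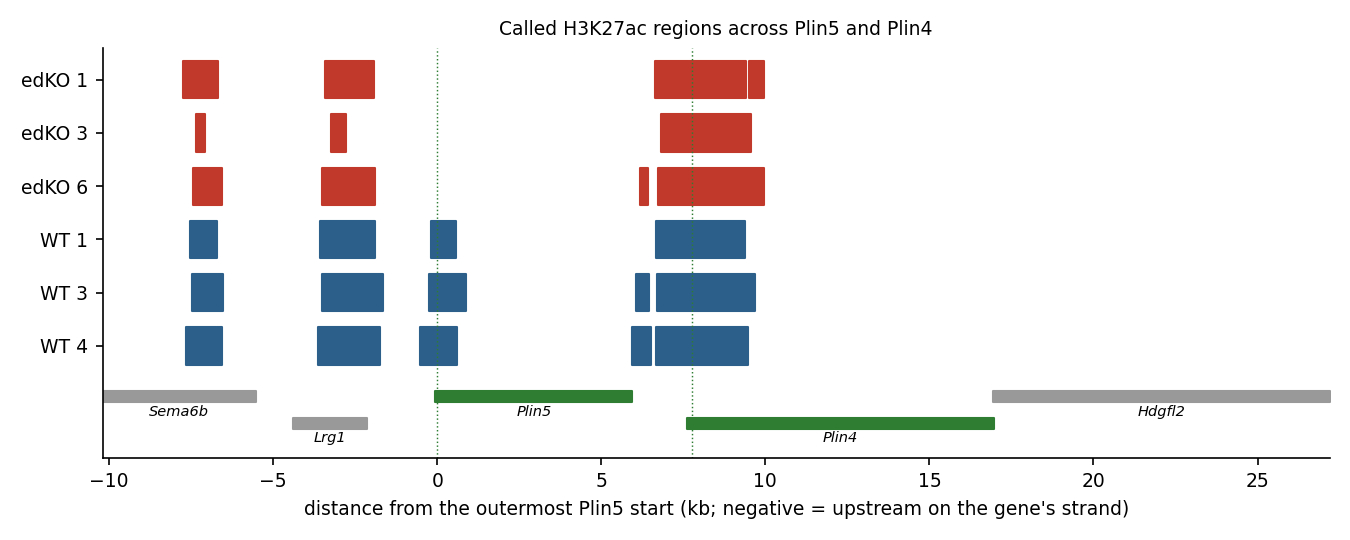
Called H3K27ac regions in each heart (bars, edKO in red above WT in blue) across Plin5 and Plin4, by distance in kb from the outermost Plin5 start, which is at 0, with gene bodies beneath (perilipins in green) and dotted lines at the Plin5 and Plin4 starts. Only the WT hearts have a bar at the Plin5 start, over 772, 1104 and 1121 bp, while the wide region at the Plin4 start is present in all 6.

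Plin4, the next gene downstream, was marked at its start in every heart. The region at its start (56107577 to 56110902) covered 3250, 2727 and 3218 bp in edKO hearts 1, 3 and 6, against 2726, 3003 and 2802 bp in WT hearts 1, 3 and 4. The genotypes overlapped. Its fold enrichment was among the higher ones of every list, at percentiles 98.1, 94.4 and 91.7 of the edKO lists and 89.8, 95.2 and 96.8 of the WT lists. Between the genes, a short region (56111037 to 56111607) was called over 230 bp in edKO 6, and over 394 and 571 bp in WT 3 and WT 4. It was called in no other heart.

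Beyond Plin5, the window reaches Lrg1, a gene for a secreted glycoprotein, and Sema6b, a semaphorin gene. The region at Lrg1 (56119211 to 56121171) was shorter in every edKO heart, at 1479, 479 and 1623 bp, than in any WT heart, at 1689, 1854 and 1889 bp. The region in Sema6b covered 1060, 249 and 891 bp in edKO hearts, against 823, 950 and 1088 bp in WT hearts, and overlapped between genotypes. Of the merged regions called in all 6 hearts, 5.99% were shorter in every edKO heart and 1.2% longer. Of the 14 such regions that reach into a perilipin stretch in any heart, 2 were shorter and 0 longer. The other shorter one lies upstream of Plin2.

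Counted once over the joint stretch (56090587 to 56127606), called regions covered 5789, 3455 and 5962 bp in edKO hearts, against 6010, 7305 and 7471 bp in WT hearts. Every edKO value was under every WT value, edKO 6 and WT 1 being close. The lowest was edKO 3, the list with the least covered length genome-wide. These lengths were not centred for differences between lists, and the share of all stretches with this order was not counted. The Plin5 window has the same lengths, and on the centred log2 scale edKO 6 (0.80) was above WT 1 (0.78) there. The mean was 5069 ± 1400 bp in edKO and 6929 ± 800 bp in WT (SD, n = 3 each), a difference of -1860 bp (two-sided exact permutation test, p = 0.1, which is the smallest possible with 3 hearts a genotype). Without edKO 3 it was -1053 bp. The region at the Plin5 start alone accounts for a mean of 0 bp in edKO and 999 ± 197 bp in WT (SD, n = 3).

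With overlapping windows reaching 10 kb past each gene end, the Plin5 locus had 5789, 3455 and 5962 bp in edKO and 6010, 7305 and 7471 bp in WT. These are the lengths of the joint stretch, since all its called regions lie in the Plin5 window. The fit for Plin5 and the permutation test are therefore not separate results. The Plin4 locus had 3719, 2727 and 3947 bp in edKO and 4016, 5239 and 5160 bp in WT. After 200 bp were added to each length and log2 values were centred per heart, the difference was -0.38 for Plin5 (SE 0.16, limma adjusted p = 0.725, unadjusted p = 0.0402) and -0.37 for Plin4 (SE 0.14, limma adjusted p = 0.686, unadjusted p = 0.0306). Neither passed, and once centred the genotypes overlapped at both loci, whereas 5.76% of all loci had every edKO heart below every WT heart and 7.11% the reverse. In the same fit, the neighbours Lrg1, Sema6b and Hdgfl2, whose windows share regions with these loci, were at -0.70, -0.55 and 0.14 (limma adjusted p = 0.533, 0.281 and 0.863). Over all 14313 loci, 15 were called lower in edKO (0.105%) and 0 higher. At an unadjusted p under 0.05, 662 were lower (4.63%) and 283 higher (1.98%). With each region within 10 kb of a gene body counted once, for the nearest one, Plin5 had 0, 0 and 230 bp in edKO and 772, 1498 and 1692 bp in WT, with a log2 difference of -2.41 (SE 0.59, limma adjusted p = 0.425). Plin4 then had 3250, 2727 and 3218 bp in edKO and 2726, 3003 and 2802 bp in WT. Its log2 difference turned to 0.19 (limma adjusted p = 0.848), so the lower value of its window came from regions nearer to Plin5 and Lrg1.

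**Figure D2:**
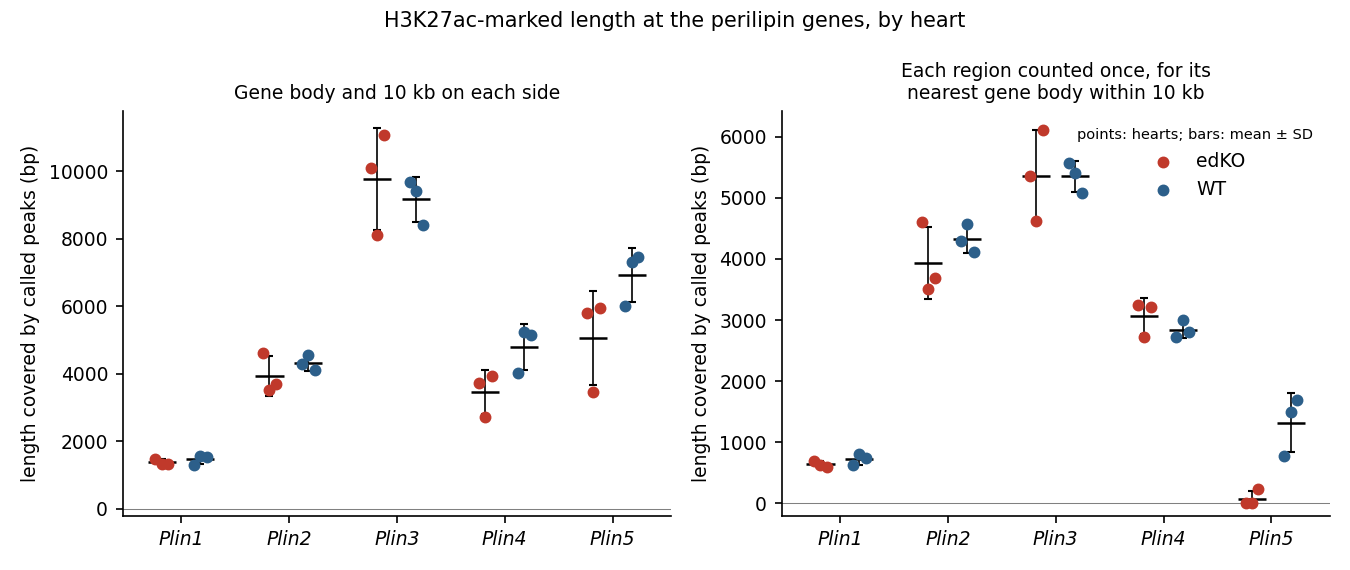
Length covered by called peaks (bp) at each perilipin gene, in a window reaching 10 kb past each gene end (left) and with each region counted once for its nearest gene body, again within 10 kb (right); points are hearts, edKO in red left of WT in blue, and lines give the mean ± SD (n = 3). On the right, Plin5 stands at 0, 0 and 230 bp in edKO hearts and 772 to 1692 bp in WT hearts, while at each of the other genes the genotypes overlap within that limit, which leaves out the regions farther upstream of Plin2.

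Plin2 was marked at its start and inside the gene in every heart. In edKO it had less marked length at a place far upstream. The pair of regions between 18.7 and 21.2 kb upstream of the start (chromosome 4, 86688792 to 86691221, intergenic, nearest gene Plin2) covered 1009, 249 and 778 bp in edKO hearts, against 2001, 1733 and 1833 bp in WT hearts. The genotypes did not overlap. The mean was 679 ± 390 bp in edKO and 1856 ± 135 bp in WT (SD, n = 3 each). This sum was chosen after the values were seen and is given without a test, and its share over the genome was not counted. Of single regions called in all 6 hearts, 5.99% were shorter in every edKO heart, as the larger of the pair was. Of all merged regions, 1.08% were called in every WT heart and no edKO heart, as the smaller was. The larger region (86688792 to 86690520) was called in every heart, over 1009, 249 and 778 bp in edKO and 1566, 1340 and 1270 bp in WT. It stood at percentiles 56.7, 11.5 and 53.3 by fold in the edKO lists and 56.0, 74.0 and 81.6 in the WT lists. The smaller one (86690659 to 86691221) was called over 435, 393 and 563 bp in the WT hearts, and in no edKO heart. By fold it stood below the middle of each WT list, at percentiles 46.2, 2.93 and 38.5. In WT 1 that was slightly above the region at the Plin5 start, at 44.1. Once peaks were held to a q-value of 1e-05 or lists to equal length, the smaller Plin2 region was not among those called in every WT heart and no edKO heart. The region at the Plin5 start kept that pattern under both.

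The Plin2 start region (86668732 to 86670848) covered 1979, 1541 and 1639 bp in edKO hearts, against 2005, 1789 and 1756 bp in WT hearts, and the genotypes overlapped through edKO 1. It was a strong region of every list, at percentiles 83.8, 86.3 and 90.8 in edKO and 92.4, 92.4 and 93.7 in WT. Within 1 kb of the start, the log2 difference was -0.13 (SE 0.07, limma adjusted p = 0.9996). Another region lay inside the gene, 11.6 to 14.4 kb from the start (86655637 to 86658482), and covered 2625, 1974 and 2047 bp in edKO and 2290, 2211 and 2356 bp in WT. A short region upstream of the start (86672155 to 86672716) was called in WT 3 alone, over 562 bp. Within 10 kb of the gene body, these 3 regions gave 4604, 3515 and 3686 bp in edKO hearts, against 4295, 4562 and 4112 bp in WT hearts, with a log2 difference of -0.05 (SE 0.11, limma adjusted p = 0.935).

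Out to 50 kb on each side, 7903, 5963 and 6755 bp were covered in edKO hearts, against 7722, 8954 and 8338 bp in WT hearts. The genotypes overlapped through edKO 1 and WT 1, and the difference was -1464 bp (exact two-sided permutation p = 0.2). In that stretch of 143308 bp, 12 merged regions were seen, counting each region that reaches into it in any heart. Of them, 5 were called in every heart and 3 in a single heart. The 5 include the region at Rraga, which reaches into the stretch in edKO 1 alone. The regions between 40 and 48 kb upstream, nearer to Dennd4c than to Plin2, were called in 1 or 2 hearts of each genotype. Downstream, the stretch holds a region at the near end of Haus6, a gene for a spindle component, of 1610, 1364 and 1347 bp in edKO and 1426, 1513 and 1365 bp in WT, and at its far edge the rim of a region at Rraga.

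**Figure D3:**
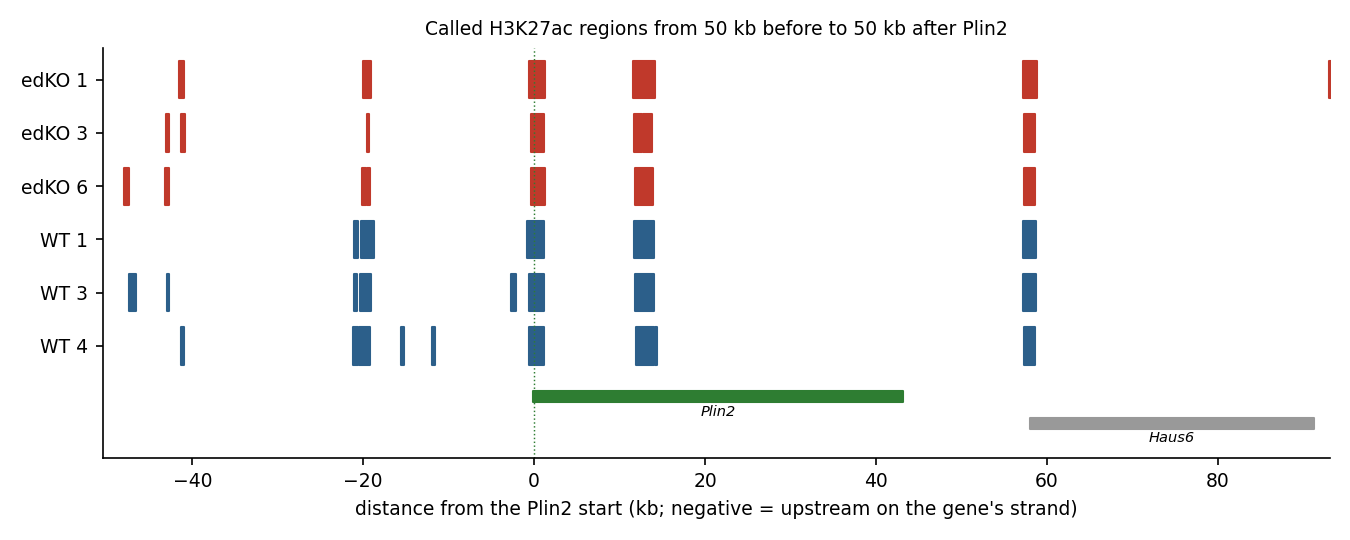
Called H3K27ac regions in each heart (bars, edKO in red above WT in blue) by distance in kb from the Plin2 start, which is at 0, with gene bodies beneath (Plin2 in green). Between 18.7 and 21.2 kb upstream the WT hearts have 1733 to 2001 bp called and the edKO hearts 249 to 1009 bp, while the bars at the start and inside the gene are present in all 6.

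Plin3 was the most heavily marked perilipin gene and did not differ detectably between genotypes. Its start lay in a wide region (chromosome 17, 56287427 to 56292120) of 4372, 4142 and 4354 bp in edKO hearts and 4495, 4589 and 4344 bp in WT hearts, at percentiles 90.8 to 92.4 of the edKO lists and 93.5 to 94.2 of the WT lists. Called peaks filled the whole 2001 bp around the start in every heart. Its far end lay in a second wide stretch (56275273 to 56280540) that runs into the neighbouring gene Ticam1, an adaptor gene of innate immunity. That stretch covered 4568, 3035 and 4885 bp in edKO and 4176, 3832 and 3129 bp in WT. In all, the Plin3 locus had 10113, 8127 and 11072 bp in edKO hearts, against 9679, 9417 and 8416 bp in WT hearts. The log2 difference was 0.17 (SE 0.10, limma adjusted p = 0.840). The highest value, that of edKO 6, includes 3 short regions of 251, 280 and 260 bp within Ticam1 that were called in no other heart.

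Plin1 had the least marked window of the perilipins. Its start was unmarked within 1 kb in all 6 hearts, as were the starts of most adipocyte markers. A single region (chromosome 7, 79721080 to 79721881) at the far end of the gene was called in every heart, over 688, 636 and 589 bp in edKO and 628, 802 and 741 bp in WT. The other regions in its window lay at Kif7, a kinesin gene of hedgehog signalling, and at Pex11a and Wdr93. The Plin1 locus had 1477, 1316 and 1336 bp in edKO hearts, against 1305, 1563 and 1528 bp in WT hearts, with a log2 difference of 0.01 (SE 0.14, limma adjusted p = 0.993).

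**Figure D4:**
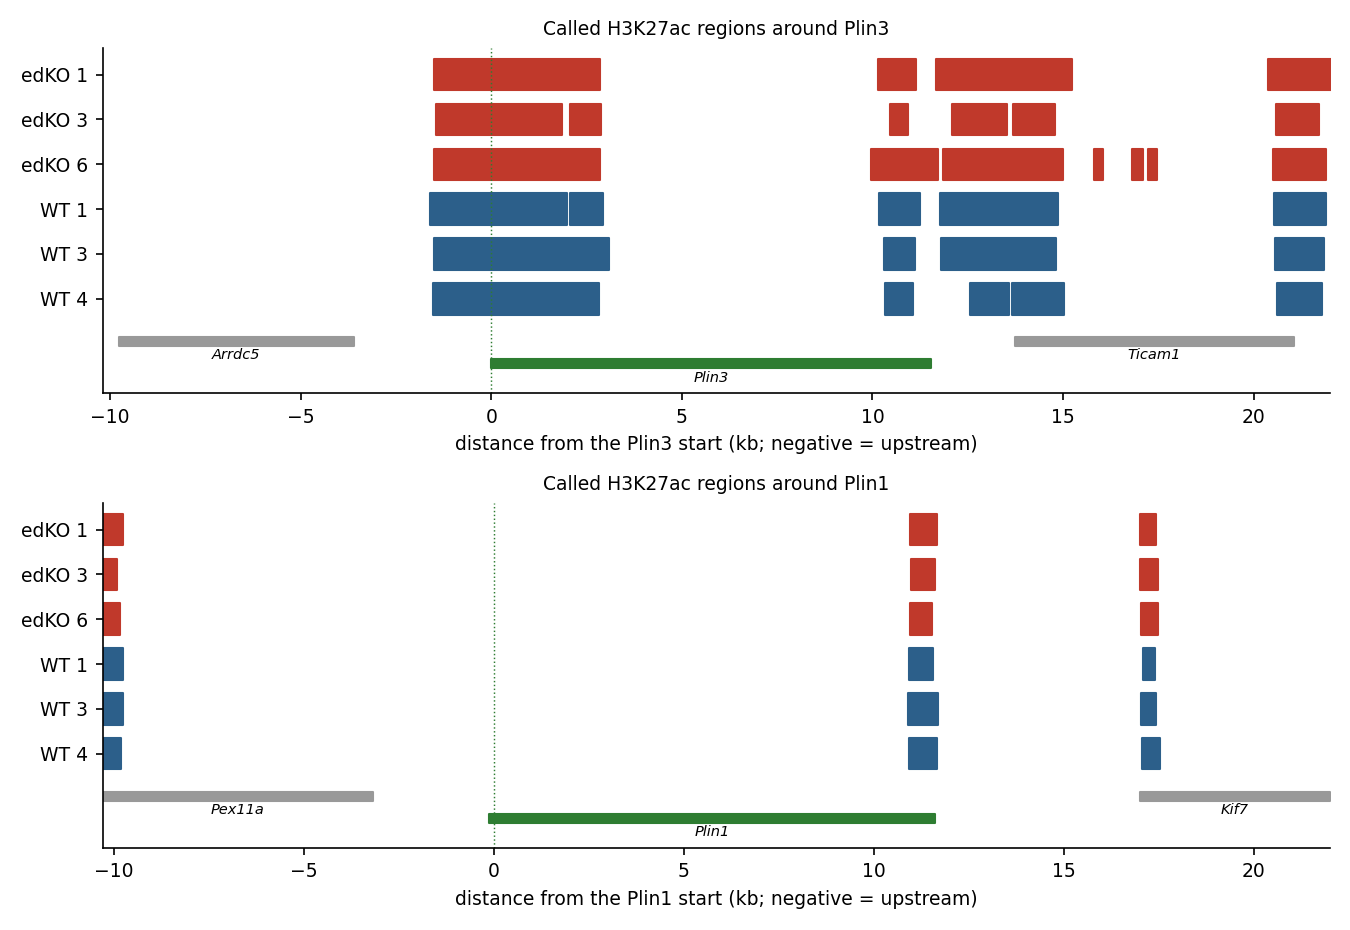
Called H3K27ac regions in each heart (bars, edKO in red above WT in blue) by distance in kb from the Plin3 start (top) and the Plin1 start (bottom), each at 0, with gene bodies beneath. Plin3 has wide regions at both ends in all 6 hearts, and Plin1 has no region at its start and a short one of 589 to 802 bp at its far end.

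The marked share of each window set the genes in an order. Plin3 had 25.8 to 35.1% of its window covered over the 6 hearts, Plin5 13.3 to 28.7%, Plin4 9.29 to 17.8%, Plin2 5.55 to 7.27% and Plin1 4.11 to 4.92%. This order held in 5 of 6 hearts, and in WT 4 Plin5 was above Plin3. The ranges of Plin3 and Plin5 overlap, as do those of Plin5 and Plin4, whose windows share regions, while those of Plin4, Plin2 and Plin1 do not. Much of the length in the Plin5 window lies at the Plin4 start, Lrg1 and Sema6b. With each region within 10 kb counted once for its nearest gene body, Plin5 had a mean of 699 bp over the 6 hearts. By that count Plin3 had 5356 bp, Plin2 4129 bp, Plin4 2954 bp and Plin1 681 bp. Among all tested loci of a heart, Plin3 stood at percentiles 95.1 to 97.7 of the share covered, Plin2 at 46.5 to 53.9 and Plin1 at 31.6 to 42.2. Plin5 stood at percentiles 90.8, 85.1 and 92.1 in edKO hearts and 92.2, 95.1 and 96.0 in WT hearts. Its genotypes were next to each other at edKO 6 and WT 1, and they overlapped on the centred log2 scale.

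Across the 4 stretches, 26 merged regions were found, 13 of them nearest to a perilipin gene. In every heart 14 were called, against 35.8% of all merged regions, and 6 were called in a single heart. The 14 include the region at Rraga, which reaches into the Plin2 stretch in edKO 1 alone. The regions called in all WT hearts and no edKO heart were 2, at the Plin5 start and upstream of Plin2, against 1.08% of all merged regions. The one upstream of Plin2 left this group under the q-value limit of 1e-05 or equal list length. The opposite pattern was shown by 0 of the 26, against 0.0719% of all merged regions.

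**Figure D5:**
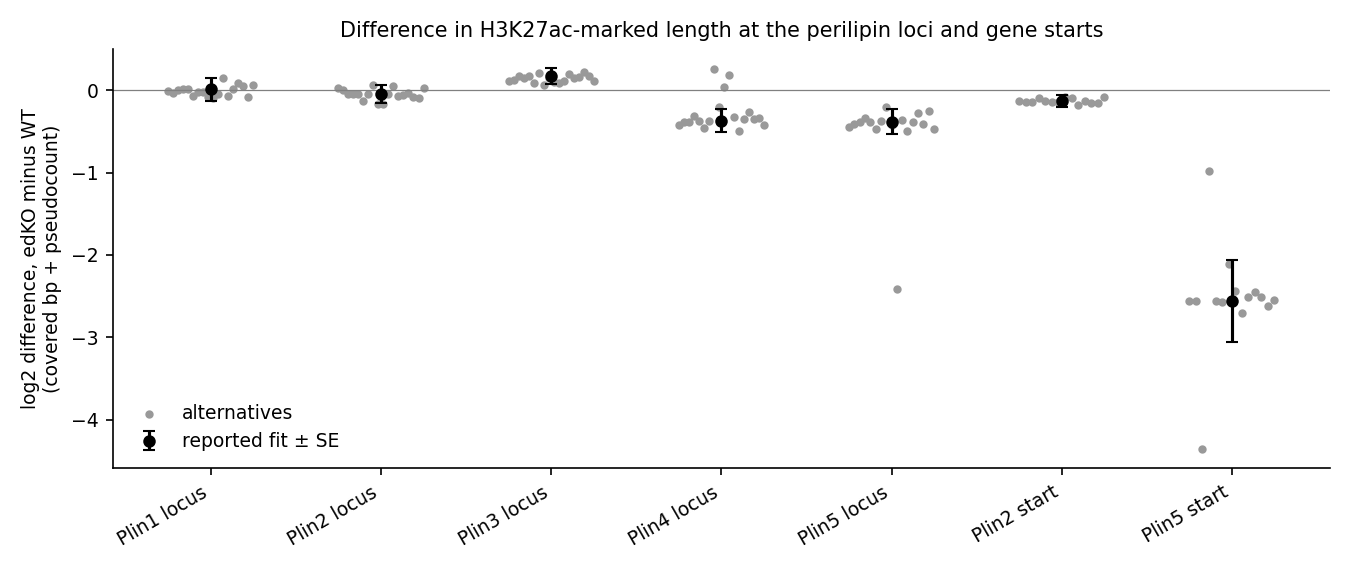
Log2 difference in covered length, edKO minus WT, at the 5 perilipin loci and within 1 kb of the Plin2 and Plin5 starts; black points give the reported limma estimate ± SE and grey points the alternatives. The 5 loci lie between -0.38 and 0.17, and the Plin5 start at -2.55, with the lowest grey point at -4.35 for 50 bp added before taking logs.

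Other genes of the lipid droplet were read in the same fit. Of 23 genes listed (lipases and their regulators, CIDE proteins, FIT proteins, seipin and others), 22 were tested, and 0 passed in either direction. At an unadjusted p under 0.05, 7 were lower and 1 higher, where the shares of all loci were 4.63% and 1.98%. Their median log2 difference was -0.13, against 0.03 over all loci, and 14 of 22 lay below 0, against 41.5% of all loci. In the same fit the median was -0.08 for cardiomyocyte markers (7 of 10 below 0), 0.18 for fibroblast markers (1 of 6) and 0.11 for endothelial markers (2 of 6). It was 0.14 for the 4 adipocyte markers tested (1 of 4) and -0.02 for the 5 brown adipocyte markers tested (4 of 5). Cidea is in both the brown adipocyte and the lipid droplet list. The part of such shifts in the values of the lipid droplet genes was not tested. The 3 genes with the smallest unadjusted p are given next, and that choice favours genotypes that stand apart. Lipe, the hormone-sensitive lipase gene, had 7135, 6212 and 6675 bp in edKO and 9983, 10452 and 10549 bp in WT (log2 difference -0.53, SE 0.11, limma adjusted p = 0.219). Hilpda, an inhibitor of the lipase ATGL, had 1593, 1365 and 1488 bp in edKO and 2575, 2212 and 2547 bp in WT (log2 difference -0.57, SE 0.14, limma adjusted p = 0.283). Pcyt1a, a phosphatidylcholine synthesis gene whose enzyme binds growing droplets, had 3799, 2714 and 4080 bp in edKO and 5636, 4984 and 4725 bp in WT (log2 difference -0.44, SE 0.11, limma adjusted p = 0.342).

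The loci whose centred log2 lengths over the 6 hearts were most like those of each perilipin locus, by Pearson correlation among 14297 loci whose windows do not touch a perilipin window, were Metrnl and Snx5 for Plin1 (r = 0.998 and 0.995), Myh10 and AU041133 for Plin2 (0.983 and 0.981), Ap3s2 and Nfatc4 for Plin3 (0.991 and 0.990), Zfp729a and Tprgl for Plin4 (0.992 and 0.988), and Txnrd3 and Stk32b for Plin5 (0.992 and 0.987). With 6 points and so many loci, values this high are a description of these hearts only. Between perilipin loci, r ran from -0.706 for Plin2 and Plin3 to 0.932 for Plin4 and Plin5, which share regions.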

How the data were processed

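Per the submitters' processing notes, reads were handled with cutadapt, BWA, SAMtools and MACS2 on mm10 (GRCm38); no source used here states versions, settings or the use of the inputs. The authors deposited 1 peak list per heart, with coordinates, a score (10 times the −log10 q-value, cut to a whole number), a fold enrichment ratio, and −log10 p-values and q-values. Every list reaches down to a q-value of about 0.05. Entries with the same coordinates (several summits) were taken as 1 region. Fold was used only as a percentile within a list.

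Covered bp per protein-coding gene (body and 10 kb on each side, RefSeq GRCm38.p6) were converted to log2(bp + 200), then centred within each heart. Loci with a mean under 500 bp (starts under 200 bp) were left out, and limma 3.58.1 (trend, robust) in R 4.3.3 was fitted with genotype only, with Benjamini-Hochberg adjustment over all loci. All 5 perilipin loci passed that filter. Single lengths were tested by exact permutation with scipy 1.17.1. The scripts were tested on simulated data. The genes named were the perilipins, some of the neighbours sharing regions, the 3 lipid droplet genes of smallest p and the 2 most similar loci. Arrdc5 and Fem1a, which share regions with the Plin3 window, were not described. The members and lists were chosen with earlier results of these data known. Alternatives covered thresholds, list length, pseudocount, filter, centring, window, replicate block and leaving out each heart.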

Additional observations from a re-analysis of the deposited data

How the results depend on the processing

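Over the 18 alternatives, the Plin3 difference stayed between 0.07 and 0.22 (log2), and the Plin5 difference between -2.41 and -0.20 over the 17 that could be fitted (gene body alone could not). No perilipin locus passed under any of them. The near-zero Plin1 value turned to -0.0076 (q-value of at most 1e-05), -0.0343 (equal list length), -0.0772 (no centring), -0.0190 (quantile normalization), -0.0272 (gene body alone), -0.0820 (50 kb on each side), -0.0917 (both gene ends) and -0.0496 (nearest gene). Plin2 turned to 0.0303 (q-value), 0.0036 (equal list length) and 0.0600 (gene body alone), and Plin4 to 0.26 (gene body alone), 0.0365 (both gene ends) and 0.19 (nearest gene). The cause was not tested. Leaving out each heart gave -0.0825 to 0.0899 for Plin1, -0.0975 to 0.0292 for Plin2, 0.11 to 0.22 for Plin3, -0.50 to -0.26 for Plin4, -0.49 to -0.26 for Plin5 and -2.71 to -2.45 for the Plin5 start. It gave -1979 to -1009 bp for Plin2 out to 50 kb and -2319 to -1053 bp for the joint stretch.

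The 15 loci called lower became 9 (q-value), 5 (equal list length), 31 (50 kb), 7 (nearest gene) and 0 to 9 on leaving out a heart, and the 0 higher became 2 (nearest gene) and 0 to 1 on leaving out a heart. Leaving out WT 3 gave 0 lower. The 2 starts called lower became 1 (q-value), 0 (equal list length), 0 (quantile normalization) and 1 to 7 on leaving out a heart. Of the 2 perilipin regions called in every WT heart and no edKO heart, 1 was left by the q-value limit and 1 by equal list length, the one at the Plin5 start in both.

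Hearts 1 and 3 share a number across genotypes. Over 14313 loci their deviations correlated at r = 0.179 and 0.0316, against -0.244 to 0.143 for other pairs, so the numbers are not shown to pair the hearts. The replicate block left a single residual degree of freedom. With it, 90 loci were lower, and 124 starts were lower and 12 higher. The Plin5 start was then among them (-2.43, limma adjusted p = 0.0219, against 0.0219 to 0.9996 over all its alternatives), and Plin2 was 0.0475. Depth per heart is unknown, so weak regions near the calling limit may be missed in any list.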
